A study of Mus musculus with 14 samples.

Results

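The liver library was set against the kidney library of a survey of miRNAs in C57BL/6J mice, an inbred laboratory strain. The pair makes up 2 of the 14 tissue libraries and its members are the columns labelled liver and kidney. Each library was made from total RNA pooled over several mice, 5 or 10 by different statements in the labels, and neither age, sex nor treatment is given. Each tissue has 1 library, so no difference below has a replicate check, no test was run and no p-value is given.

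A miRNA is a short RNA that guides Argonaute proteins to messenger RNAs, mainly through bases 2 to 8 from its 5′ end, the seed. miRNAs with the same seed form a family and can share targets. Hepatocytes, the main cell type of the liver, are known for miR-122. The kidney tubule is an epithelium that arises from intermediate mesoderm, and it is known for miRNAs of the miR-30 family, for the miR-200 family of epithelial cells, and for miRNAs encoded within the Hox gene clusters.

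The mature sequences that carry the comparison are printed from RefSeq (GRCm38.p6), 5′ to 3′, with the seed in capitals. The table uses older names, whose star denotes the arm held to be the minor one, and each unmarked name was matched by hand to its current arm. The Hox cluster miRNAs are shown because miR-196a, miR-196b and miR-10b were the 3 names with the largest folds in favour of kidney, and because close relatives among them were not equally far apart. By position from the 5′ end, miR-10a and miR-10b differ by U12A and miR-196a and miR-196b by A12C, the base of the a member being given before the position.
miR-10a: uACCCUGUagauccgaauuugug
miR-10b: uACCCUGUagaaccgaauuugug
miR-196a: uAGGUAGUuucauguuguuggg
miR-196b: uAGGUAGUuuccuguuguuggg

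The 5 members of the miR-200 family carry 2 seeds, AACACUG in miR-200a and miR-141 and AAUACUG in the others, and are shown because all of them were scarce in liver.
miR-200a: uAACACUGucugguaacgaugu
miR-141: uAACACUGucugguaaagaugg
miR-200b: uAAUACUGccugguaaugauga
miR-200c: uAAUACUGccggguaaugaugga
miR-429: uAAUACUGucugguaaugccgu

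The following pairs are shown because relatives differed between the libraries in opposite directions (miR-148a and miR-152, miR-101b and miR-101a) or in the same one (miR-192 and miR-215). miR-148a and miR-152 share the seed CAGUGCA. RefSeq's miR-101b begins 1 base earlier than miR-101a, and from its base 2 the next 15 bases are those of miR-101a.
miR-148a: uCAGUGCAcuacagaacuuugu
miR-152: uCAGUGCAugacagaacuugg
miR-101b: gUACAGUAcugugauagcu
miR-101a: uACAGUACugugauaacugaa
miR-192: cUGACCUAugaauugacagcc
miR-215: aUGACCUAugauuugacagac

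Levels are given as RPM, the reads of a name divided by all miRNA reads of its library and multiplied by 1000000, from 6344776 reads in liver and 9231439 in kidney. The 95% exact Poisson interval of a value of 100 RPM runs from 92.4 to 108 RPM in liver and from 93.7 to 107 RPM in kidney. Folds carry 95% exact conditional binomial intervals. Reads have no molecular identifiers here, so all intervals cover counting error only. Of the 1046 names, 578 had reads in either library, 410 in both, 24 in liver only and 144 in kidney only. Names seen in liver only reached at most 11.3 RPM and names seen in kidney only at most 25.2 RPM. At 10 RPM or more there were 147 names in liver and 217 in kidney, and at 1000 RPM or more 26 and 47.

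The liver label held against its marker, while the kidney markers were mixed. Liver had 437407 RPM of miR-122, against 404 RPM in kidney. For kidney, the Hox cluster name miR-196b had 1.10 RPM in liver and 4706 RPM in kidney. The tubule marker miR-30a had 14532 RPM in liver and 35191 RPM in kidney. Its log2 difference of −1.28 was smaller than the median of −1.82 over names that reached 100 RPM, and it was 0.18 with median-of-ratios factors and 0.09 with TMM factors, scalings explained with the counts of names. miR-192, known from liver, kidney and gut epithelium, was abundant in both, at 48347 RPM in liver and 21819 RPM in kidney. miR-204, also listed for kidney, was near 0 in both, with 1 read in liver and 30 reads in kidney.

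A few names took most reads of each library, and 7 of the 10 most abundant were common to both. The 10 leading names held 90.4% of the liver reads and 82.6% of the kidney reads. miR-122 alone held 43.7% in liver and 0.0404% in kidney. miR-378, which is encoded inside Ppargc1b, a coactivator gene of mitochondrial metabolism, held 14.1% in liver and 30.1% in kidney. miR-143, a miRNA of smooth muscle and fibroblasts, held 6.14% in liver and 29.6% in kidney. Together miR-122 and miR-143 were about as many reads as all the rest in liver, since 50.1% of liver reads and 70.4% of kidney reads were left without them. This share sets the scale of every other name, so counts of names are also given with both left out of the totals.

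A name was counted as apart when it differed at least 4-fold and had 100 RPM or more in the higher library. By this rule 4 names were higher in liver, which is 3.57% of the 112 that reached 100 RPM in either library and 0.692% of the 578 with reads. Higher in kidney were 49 names, which is 43.8% of the 112 and 8.48% of the 578. The median over the 112 names was −1.82 on the log2 scale, liver over kidney, and 98 of them were higher in kidney. With miR-143 and miR-122 left out of both totals, every log2 difference moved by 0.49 toward liver. The counts were then 5 higher in liver (0.865% of the 578 names) and 35 higher in kidney (6.06%), and the median was −1.34. Median-of-ratios factors, which set the median ratio over names with reads in both libraries to 1, moved every difference by 1.46 toward liver. They gave 12 names higher in liver (2.08% of the 578) and 14 higher in kidney (2.42%). TMM factors, which trim extreme ratios, gave 10 in liver and 14 in kidney. Totals without miR-143, miR-122 and miR-378 gave 5 in liver and 58 in kidney.

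**Figure D1:**
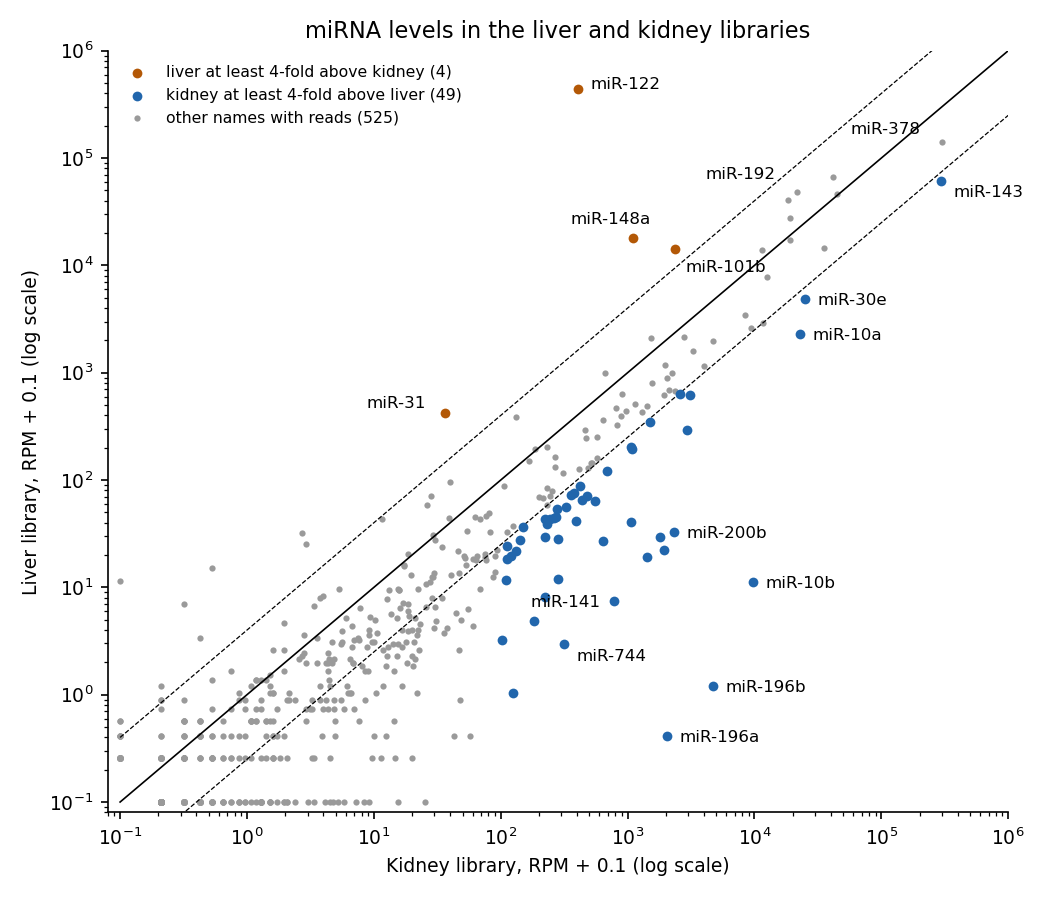
Level of each of the 578 names with reads in the liver library (vertical axis) and the kidney library (horizontal axis), in RPM + 0.1 on log axes; each point is a name, the solid line marks equal levels and the dashed lines 4-fold differences. miR-122 stands alone far above the lines, the Hox names miR-10b, miR-196a and miR-196b lie far below, and most abundant names lie on the kidney side of the solid line.

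**Figure D2:**
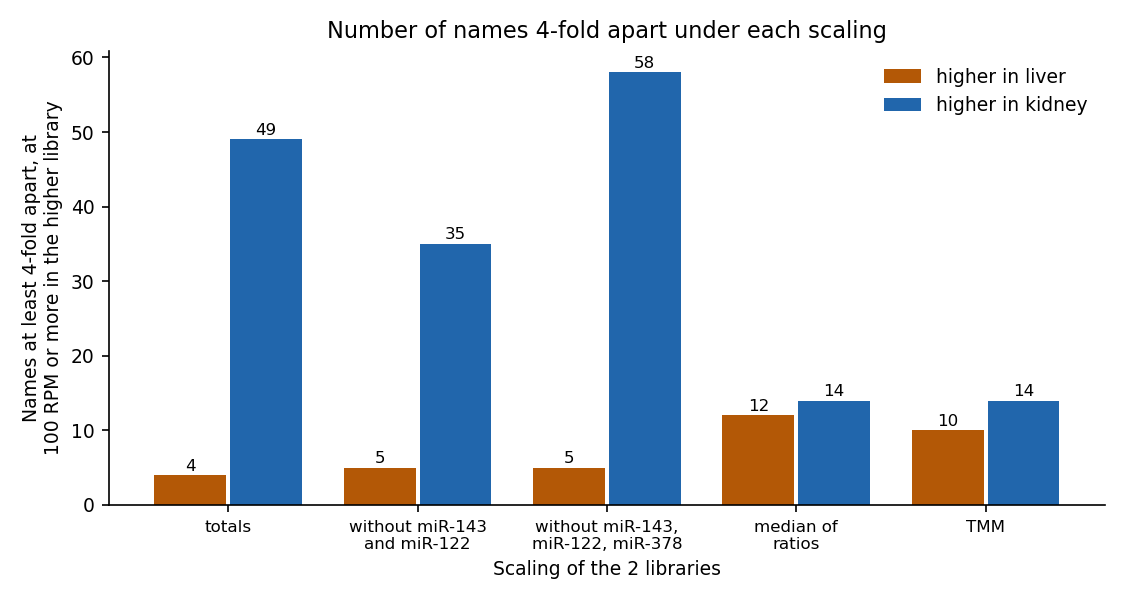
Number of names at least 4-fold apart and at 100 RPM or more in the higher library, higher in liver (left bar of each pair) or in kidney (right bar), under 5 scalings of the libraries. The kidney count is 49 with totals, 35 without miR-143 and miR-122, 58 when miR-378 is left out as well, and 14 with median-of-ratios or TMM factors, while the liver count lies between 4 and 12. The number of names that reach 100 RPM also changes with the scaling.

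Under all 5 scalings, 4 names were counted as higher in liver and 14 as higher in kidney. The 4 were miR-122, miR-148a, miR-101b and miR-31. The 14 were miR-10b, miR-196a and miR-196b, the 5 members of the miR-200 family, miR-181a and miR-181b, miR-145, miR-34c, miR-190 and miR-744. Between totals and totals without miR-143 and miR-122, 16 of the 49 kidney names dropped below 4-fold, among them miR-143, miR-30e, miR-29a, miR-29b and miR-191. In the same step miR-215 was added in liver, at 4.13-fold, and miR-222 and miR-185 in kidney. Nearest inside the limit with totals were miR-191, at 4.14-fold, and miR-25, at 4.16-fold, and nearest outside it was miR-101a, at 3.95-fold, all higher in kidney. miR-187 had 102 RPM in kidney, just inside the limit of level, and miR-185 had 89.8 RPM in kidney, just outside it.

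The hepatocyte list was higher in liver in 5 of its 6 members. Of the 4 that reached 100 RPM, 3 passed the rule in liver, against 3.57% of all such names and 0.692% of all names with reads. The 3 were miR-122, miR-148a and miR-101b, so the list holds 3 of the 4 names past the rule in liver. The lists were chosen with earlier results of these data known, so such shares, here and below, are descriptions only. miR-122 had 2775249 reads in liver and 3727 in kidney, a fold of 1083 (95% interval 1049–1119), or 1522-fold with totals without miR-143 and miR-122. Its star arm, miR-122*, had 72 reads in liver and 0 in kidney. With the count of 0 set to 3 reads, miR-122* was 34.9-fold higher in liver, and the lower 95% bound of its fold was 27.7. The 2 arms of this hairpin thus stood on the same side.

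miR-148a, a miRNA of secretory cells such as hepatocytes and pancreatic acini, had 17834 RPM in liver and 1096 RPM in kidney. It was 16.3-fold higher in liver (15.9–16.6). Its star arm went with it, at 31.8 RPM in liver and 2.60 RPM in kidney. miR-152 and miR-148b, which share its seed and were singled out after their values were seen, stood on the other side with totals. The shift of 1.46 with median-of-ratios factors is larger than the log2 difference of −1.15 for miR-148b, whose side thus depends on the scaling. It is smaller than that of −1.80 for miR-152. miR-152 had 675 RPM in liver and 2352 RPM in kidney, and miR-148b 515 RPM in liver and 1143 RPM in kidney. Within a library, where the total plays no part, there were 26.4 reads of miR-148a per read of miR-152 in liver and 0.466 in kidney.

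miR-101b had 14234 RPM in liver and 2365 RPM in kidney, 6.02-fold higher in liver (5.93–6.11). miR-101a, its near copy and the 1 member of the hepatocyte list that was lower in liver, had 2937 RPM in liver and 11600 RPM in kidney. The ratio of miR-101b to miR-101a was 4.85 reads per read in liver (4.77–4.92) and 0.204 in kidney (0.201–0.207). The genes lie on different chromosomes, that of miR-101b within the span of Rcl1. The sequences printed above share a run of 15 bases, so how reads common to both were assigned bears on each level, and that rule is not given in the sources used here.

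miR-802, listed for hepatocytes, had 43.3 RPM in liver and 11.5 RPM in kidney, a fold of 3.77 (3.01–4.77) below the limit of level. miR-31, which is known from epithelial and other cells, had 425 RPM in liver and 36.4 RPM in kidney, 11.7-fold higher in liver (10.4–13.1). miR-137, a neuronal miRNA, was scarce but uneven, with 95 reads in liver and 4 in kidney, or 14.97 RPM in liver and 0.433 RPM in kidney. Of the 7 neural names, 2 were higher in liver, miR-137 and miR-124, the second with 9.61 RPM in liver and 5.20 RPM in kidney. The most abundant of them, miR-9, had 58.9 RPM in liver and 231 RPM in kidney.

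The group around miR-192, miR-194 and miR-215, miRNAs of liver, kidney and intestinal epithelium, was higher in liver in all 5 matched members, by a median of 0.92 on the log2(RPM + 1) scale. None of the 5 passed the rule with totals. miR-192 was 2.22-fold higher in liver (2.20–2.23), miR-194 1.39-fold (1.35–1.42) and miR-215 2.94-fold (2.75–3.16). miR-194 has 2 gene copies, beside miR-192 and beside miR-215. With median-of-ratios factors the median of the group was 2.13, and 2 members passed the rule. Of the 103 names that reached 100 RPM with these factors, 12 passed in liver. Reads of miR-192 per read of miR-194 numbered 22.8 in liver and 14.2 in kidney. miR-192 and miR-215 differ at C1A, A12U and C20A, the base of miR-192 first, and there were 125.1 reads of miR-192 per read of miR-215 in liver (120–130.2) and 166 in kidney (157–176).

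The miRNAs of the Hox clusters, the genes that pattern the body axis, included the 3 names with the largest folds in favour of kidney. All 7 listed members were higher in kidney. The 4 that reached 100 RPM all passed the rule, against 43.8% of all such names and 8.48% of all names with reads. Their summed level was 2306 RPM in liver and 39555 RPM in kidney. miR-196a, encoded beside Hoxb9 and Hoxc10, had 2 reads in liver and 19033 in kidney, a ratio of 6541 in favour of kidney (1810–54013). miR-196b, encoded between Hoxa9 and Hoxa10, had 7 reads in liver and 43445 in kidney, 4266-fold higher in kidney (2070–10610). miR-10b, within the span of Hoxd3 and Hoxd4, had 71 reads in liver and 89163 in kidney, 863-fold higher in kidney (684–1105). Its star arm had 0 reads in liver and 233 in kidney, 53.4-fold higher in kidney with the 0 set to 3 reads.

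miR-10a, within the span of Hoxb3, was the exception in size. It had 2291 RPM in liver and 23048 RPM in kidney, 10.1-fold higher in kidney (9.89–10.2). It made up most of the Hox list in liver, where there were 205 reads of miR-10a per read of miR-10b (162–262), against 2.39 in kidney (2.37–2.41). The printed sequences of these 2 names differ at position 12 only. The ratio of miR-196b to miR-196a was 3.50 in liver (0.666–34.5) and 2.28 in kidney (2.24–2.32), and the liver interval, from 9 reads, contains the kidney value. With median-of-ratios factors miR-10a was 3.66-fold higher in kidney and no longer passed, while the other 3 did. Of the 103 names that reached 100 RPM with these factors, 14 passed in kidney.

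The miR-200 family, which is known to keep epithelial cells from taking on mesenchymal traits, was also higher in kidney in all 9 listed names. For miR-200c* this rests on 1 read in kidney and 0 in liver. The 6 names that reached 100 RPM all passed the rule, against 43.8% of all such names and 8.48% of all names with reads. The summed level was 111 RPM in liver and 8434 RPM in kidney. miR-200b had 32.8 RPM in liver and 2340 RPM in kidney, 71.4-fold higher in kidney (62.3–82.2). miR-200a was 87.8-fold (74.4–104.5), miR-429 75.3-fold (63.0–91.0), miR-200c 61.9-fold (53.5–71.9) and miR-141 105.7-fold (79.4–144) higher in kidney. Both gene clusters, the one with miR-200b, miR-200a and miR-429 and the one with miR-200c and miR-141, thus stood apart by similar folds. Within a library the members kept nearly the same ratios. Reads of miR-200b per read of miR-429 numbered 1.73 in liver (1.38–2.19) and 1.64 in kidney (1.61–1.68), and per read of miR-200c 1.12 in liver (0.918–1.38) and 1.30 in kidney (1.27–1.32).

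**Figure D3:**
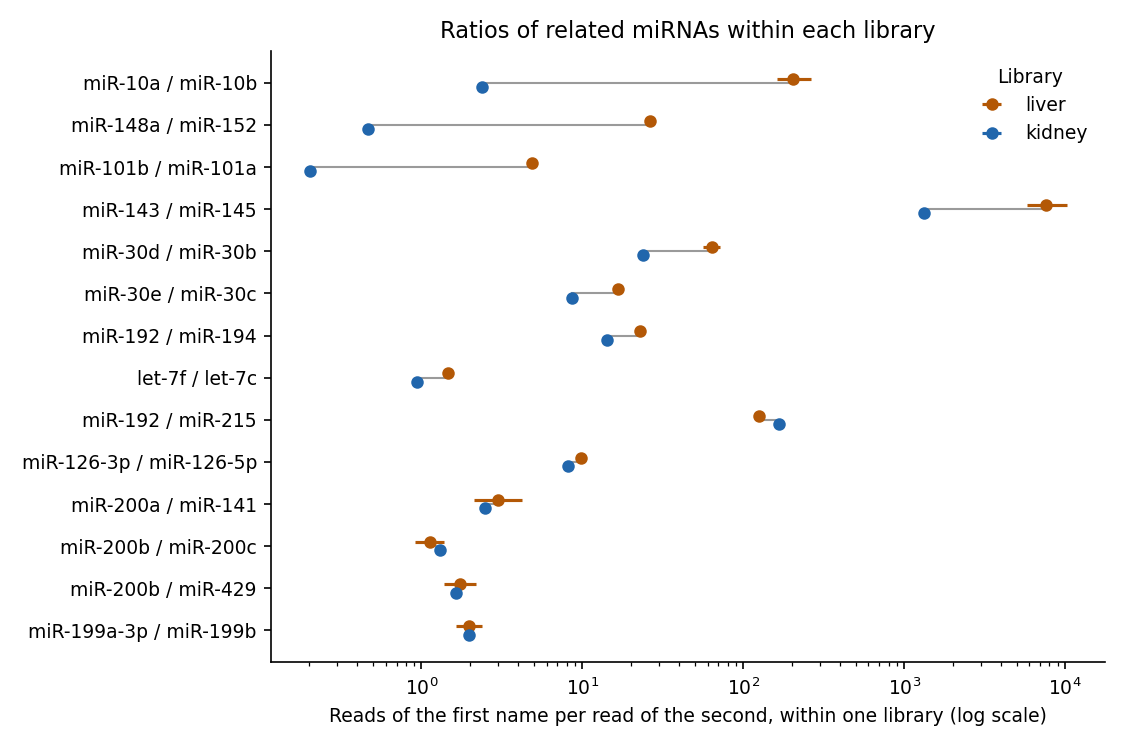
Reads of a first name per read of a second within the liver library and within the kidney library, on a log axis, for 14 pairs of related names chosen after their values were seen; bars are 95% exact binomial intervals, hidden by the points where narrow. miR-10a per miR-10b, miR-148a per miR-152 and miR-101b per miR-101a lie far apart between the libraries, while pairs within the miR-200 family nearly coincide.

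The miR-30 family, abundant in kidney tubules, was higher in kidney in all 11 listed names, and 3 of the 8 that reached 100 RPM passed the rule, near the 43.8% of all such names. With median-of-ratios factors none passed, where 14 of the 103 names that reached 100 RPM with these factors did in kidney. miR-30a had 2.42-fold, miR-30d 3.59-fold and miR-30e 5.16-fold more RPM in kidney than in liver. miR-30c, with 293 RPM in liver and 2923 RPM in kidney, was 9.98-fold higher in kidney (9.52–10.5), and miR-30b was 9.57-fold higher (8.44–10.9). The median of the family was −1.35 on the log2(RPM + 1) scale, beside −1.81 over all names at 100 RPM or more, and it was −1.04 with totals without miR-143 and miR-122 and −0.07 with median-of-ratios factors. miR-30a itself was higher in liver under the last, by 0.18 on the log2 scale.

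The miR-181 family, known from lymphocytes and other cells, was higher in kidney in all 4 members, and 3 passed the rule, where 43.8% of the names that reached 100 RPM did. With median-of-ratios factors 2 of them still passed, where 14 of the 103 names that reached 100 RPM with these factors did in kidney. miR-181a had 40.7 RPM in liver and 1055 RPM in kidney, 25.9-fold higher in kidney (22.9–29.5), and miR-181b was 38.7-fold higher (27.02–57.6). The miR-29 family, known to target collagen mRNAs, had 3 of 3 members past the rule with totals, at 5.01-fold for miR-29a, 5.58-fold for miR-29b and 7.61-fold for miR-29c. With totals without miR-143 and miR-122 only miR-29c passed, and with median-of-ratios factors none did. The share of names that reached 100 RPM and passed in kidney was 43.8% with totals. The miR-23, miR-24 and miR-27 clusters had 3 of 5 members past the rule with totals and none with median-of-ratios factors. miR-24 was the closest to even, at 3433 RPM in liver and 8398 RPM in kidney.

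With totals, 49 names passed the rule in kidney, and some lie outside these families. miR-744, encoded within the span of Map2k4, had 18 reads in liver and 2892 in kidney, 110.4-fold higher in kidney (69.7–187). miR-190, within the span of Tln2, had 11.98 RPM in liver and 285 RPM in kidney. miR-34c, a miRNA of multiciliated and germ cells, had 26.95 RPM in liver and 644 RPM in kidney. RefSeq sequences, matched by hand, were used for 37 of the 49 kidney names. Names with a gene copy on chromosome 18 or with differing RefSeq sequences were left out. The 37 had 24 different seeds, and 10 seeds were shared by 2 or 3 of them. How often seeds are shared over all names was not computed, so nothing is read from this count.

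Lists of other cell types mostly had their members higher in kidney too, as were 98 of all 112 names that reached 100 RPM. These directions are those with totals. With median-of-ratios factors 70 of the 112 were higher in kidney. List medians on the log2(RPM + 1) scale were then 0.63 for endothelial, 0.05 for red blood cell, 0.12 for white blood cell and 0.18 for pancreatic names. They were −1.12 for smooth muscle, −0.81 for mesenchymal and 0 for striated muscle names. The smooth muscle list stood at 61441 RPM in liver and 295911 RPM in kidney, nearly all of it miR-143. miR-145, from the same gene cluster as miR-143, was 27.7-fold higher in kidney (21.0–37.3), against 4.81-fold for miR-143. There were 7640 reads of miR-143 per read of miR-145 in liver (5810–10261) and 1329 in kidney (1273–1389). The endothelial miR-126-3p had 7824 RPM in liver and 12668 RPM in kidney, and the 2 arms of its hairpin summed to 8620 RPM in liver and 14227 RPM in kidney. Fewer cells of a type and less RNA per cell cannot be told apart in whole tissue.

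The red blood cell list summed to 582 RPM in liver and 1390 RPM in kidney, and miR-451 had 161 RPM in liver and 573 RPM in kidney. The white blood cell list summed to 1404 RPM in liver and 2431 RPM in kidney, most of it miR-146a, while miR-223 had 2.99 RPM in liver and 4.55 RPM in kidney. None of these 12 names passed the rule, but only 3 red blood cell and 2 white blood cell names reached the 100 RPM it needs. Of all names at that level 43.8% passed in kidney. The mesenchymal list had 2 of 6 names past the rule, miR-199a-3p and miR-199b, the only 2 of the list that reached 100 RPM. These 2 have the same mature sequence in RefSeq, and their reads stood at a ratio of 1.97 in both libraries, so they count as a single uncertain result. Of the striated muscle list only miR-1 reached 100 RPM, and it passed, with 39.2 RPM in liver and 231 RPM in kidney. In the same list miR-133a had 0 reads in liver and 13 in kidney. The pancreatic list summed to 3.15 RPM in liver and 11.9 RPM in kidney. The part of blood, vessel and muscle cells in the differences above was not tested.

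**Figure D4:**
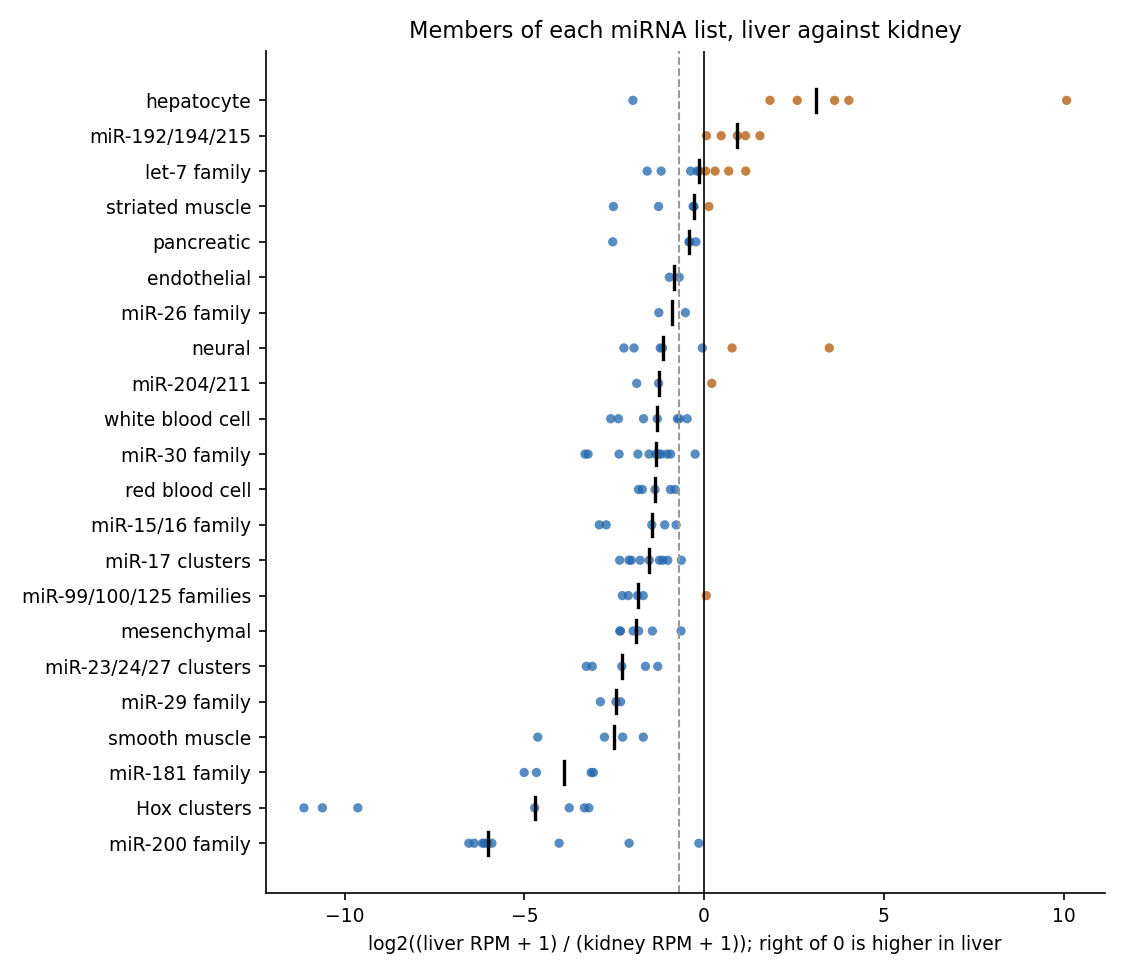
Difference of each matched member of 22 miRNA lists on the log2 scale, liver over kidney with 1 RPM added to both; each point is a name, black bars are list medians and the dashed line is the median of −0.70 over all 578 names with reads. All 5 names of the miR-192 group and all of the hepatocyte list but miR-101a lie right of 0, the let-7 family straddles it, and the miR-200, Hox and miR-181 lists lie farthest left.

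Shared abundant names were those at 1000 RPM or more in both libraries. There were 24, which is 49.0% of the 49 that reached it in either library, and they held 54.4% of the liver reads and 92.0% of the kidney reads. Another 2 names reached this level in liver only, miR-122 and miR-203, and 23 in kidney only. Of the 24, 9 were less than 2-fold apart. These were let-7f, miR-21, miR-194, let-7g, let-7c, let-7b, let-7d, miR-126-3p and miR-146a. The evenest was let-7c, with 45874 RPM in liver and 44601 RPM in kidney, a fold of 1.03.

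The let-7 family, which promotes differentiation, made up much of both libraries, with 18.9% of the reads in liver and 14.1% in kidney over its 9 listed names. Its members did not move together. let-7a had 40660 RPM in liver and 18247 RPM in kidney, 2.23-fold higher in liver, while let-7e had 431 RPM in liver and 1294 RPM in kidney. The median of the family was −0.13 with totals, 0.36 with totals without miR-143 and miR-122 and 1.32 with median-of-ratios factors, so its direction depends on the scaling. let-7 sequences differ by few bases, let-7a and let-7f by G12A with the base of let-7a first, so members may share reads. miR-21, known from many tissues and from growth, had 27629 RPM in liver and 18958 RPM in kidney. Of the 24 shared names, 9 were higher in liver with totals, 11 with totals without miR-143 and miR-122 and 18 with median-of-ratios factors.

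**Figure D5:**
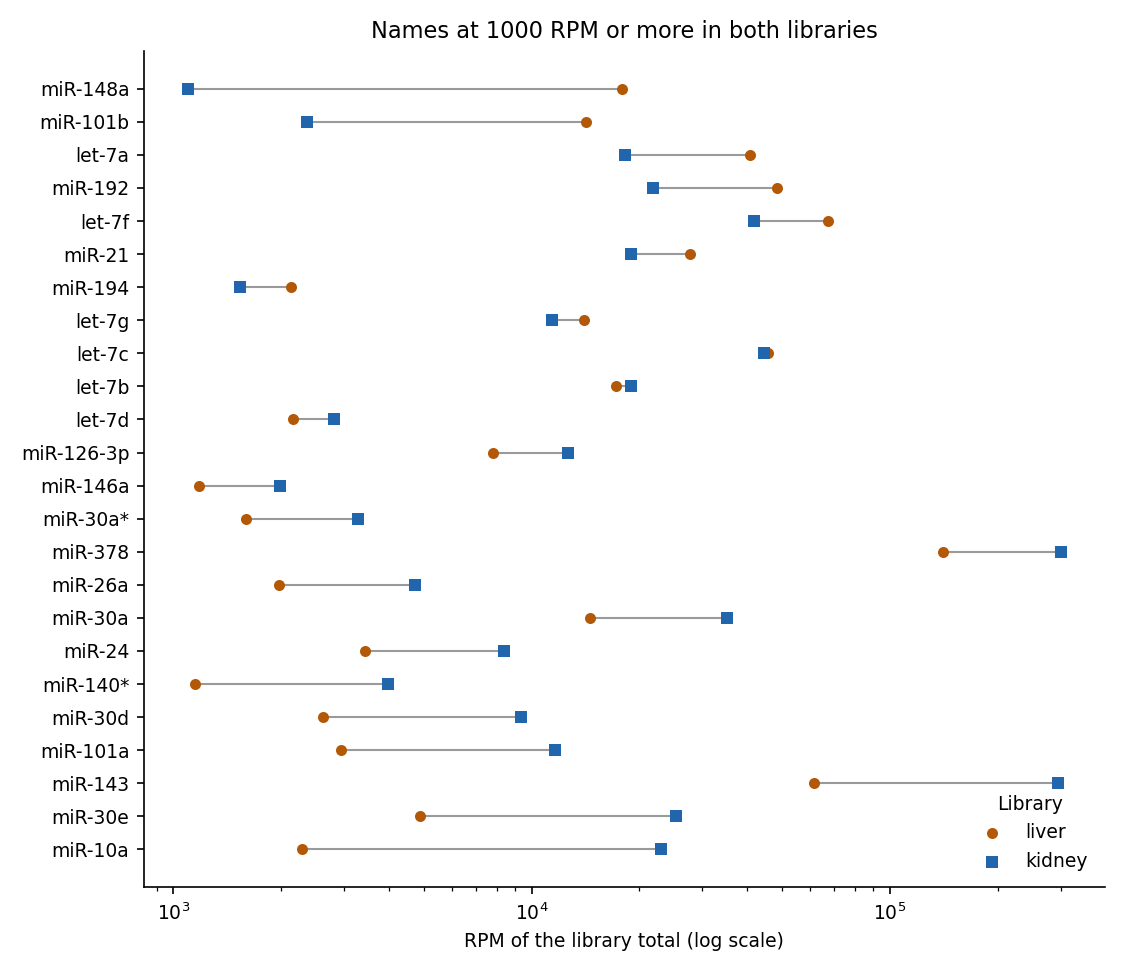
Level of each of the 24 shared abundant names in RPM on a log axis, with circles for liver and squares for kidney, ordered by fold. Names at the top, led by miR-148a and miR-101b, are higher in liver, let-7c is level, and names at the bottom, such as miR-30e and miR-10a, are higher in kidney.

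Ranks of the 2 profiles were related, with Spearman's rho of 0.791 across 221 names that reached 10 RPM in either library. Names are not independent replicates and the libraries share their preparation, so this is a description only. Across the 112 that reached 100 RPM, rho was 0.676.

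Names whose genes are neighbours were compared by their folds. Hairpins within 10 kb of each other in RefSeq formed 25 clusters among names that reached 100 RPM in either library. In 16 of them the members lay less than 1 apart on the log2 scale, and the median range was 0.77. Names with several gene copies enter more than 1 cluster, and miR-181a with miR-181b enters as 2 with the same values. The range among names that are not neighbours was not computed, so nothing is read from these counts about neighbouring genes. The cluster of miR-200b, miR-200a and miR-429 spanned 0.30 and that of miR-191 and miR-425 0.54. The widest was that of miR-143 and miR-145, which spanned 2.52, followed by that of miR-23a, miR-27a and miR-24 with 2.03, where miR-24 has another gene copy.

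Arms of a hairpin were compared within each library for 42 hairpins whose arms each had reads and summed to 100 RPM or more in both, with normal-approximation intervals from the 4 counts. The same arm led in both libraries in all 42, and in 28 the log2 arm ratio differed by less than 1 between liver and kidney. Of the 6 hairpins with the largest differences, several rest on few reads. let-7d* had 6 reads beside 13671 of let-7d in liver and 202 beside 25855 in kidney, a difference of 4.15 (2.98–5.33) on the log2 scale. miR-340-3p made up more of its hairpin in liver, with 29 reads beside 730 of miR-340-5p, against 17 beside 2866 in kidney (2.74, 1.87–3.62). The star arms of miR-191 and miR-29a also made up more of their hairpins in liver, with log2 differences of −1.81 and −1.57. For miR-98 and let-7g the star arms had 1 and 5 reads in liver and 8 and 18 in kidney. Among better covered hairpins, miR-30e* made up 9.07% in liver and 5.30% in kidney, and miR-142-5p 9.89% in liver and 18.5% in kidney.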

How the data were processed

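The table deposited by the authors holds raw counts of reads for each mature miRNA in 14 tissues. Per the labels' protocols, total RNA was taken with Trizol, RNA of several mice was pooled, and libraries followed the usual Illumina procedure. Trimming, aligner, miRNA release, build and the handling of reads that match several names are, in the sources used here, not given, so near-identical names may share reads and no coordinates are printed. The liver and kidney columns were used, matched by tissue label. Counts were scaled to RPM of the library total (1000000 × reads / total). A count of 0 was set to 3 reads for folds, and 1 RPM was added for list medians over 22 lists. Tools were Python 3.11.15, scipy 1.17.1, numpy 2.4.6, pandas 2.3.3 and matplotlib 3.10.9, and TMM factors came from edgeR 4.0.16 in R 4.3.3. The calculation of the 4-fold rule was checked on simulated Poisson counts, with folds drawn alike in both directions and scaled by known totals. The simulation held no spread between libraries beyond counting error, so it does not bear on replicates or on the choice of scaling. Named were all list members, the 10 most abundant names of a library, the 15 largest folds per direction, up to 12 shared names within 2-fold, the 6 largest arm differences and up to 8 names whose call changed with the totals. The comparison and the lists were chosen with earlier results of these data known.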

Additional observations from a re-analysis of the deposited data

How the results depend on the processing

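No paired analysis was possible because each tissue has 1 library, and no replicate could be left out. The number of names higher in liver was 4 with totals. Without miR-143 and miR-122 it was 5, as also with miR-378 left out. It was 12 with median-of-ratios factors, 10 with TMM, 8 at a minimum of 10 RPM and 7 at 2-fold. The number higher in kidney was 49 with totals, 35 without miR-143 and miR-122, 58 with miR-378 left out as well, 14 with median-of-ratios factors and with TMM, 103 at a minimum of 10 RPM, 17 at 1000 RPM, 84 at 2-fold and 22 at 8-fold. Leaving miR-122 alone out of the totals, chosen after seeing the data, gave 7 in liver and 23 in kidney. The number of shared names within 2-fold was 9 with totals, 17 without miR-143 and miR-122 and with TMM, and 19 with median-of-ratios factors and without miR-143, miR-122 and miR-378. Each scaling also changes which names reach 1000 RPM. Without miR-143 and miR-122 there were 34 shared names, and of the 24 shared with totals 12 were then within 2-fold. At 5000 RPM there were 11 shared names in place of 24. The rho of 0.791 was 0.676 at 100 RPM. With median-of-ratios factors 37 of 144 named miRNAs changed sign. A name past the 4-fold rule could not, since every shift was smaller than the limit. Factors that centre the ratios assume that most names are level, and totals are set by a few names, so sizes between liver and kidney hold only relative to the scaling, while ratios within a library do not depend on it. In liver 3 reads are 0.473 RPM and in kidney 0.325 RPM, which limits what a count of 0 shows.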
